A study of Arabidopsis thaliana with 12 samples.

Results

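The Arabidopsis thaliana genome carries several genes for histone H3, and the 8 described here encode its main replication type, H3.1, and its replacement type, H3.3. The genes were chosen by locus identifier: AT1G09200, AT3G27360, AT5G10390, AT5G10400 and AT5G65360 for H3.1, and AT4G40030, AT4G40040 and AT5G10980 for H3.3. They are 8 of the 25835 genes in the deposited tables, and all 8 were among the 19170 genes that passed the filter of a mean level of at least 1 FPKM (read fragments scaled to gene length and library depth). The gene annotation used here names the first 5 as H3.1 and the other 3 as H3.3, and it places them on chromosomes 1, 3, 4 and 5.

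H3 is the histone whose tail carries many of the marks that distinguish active from silent chromatin. H3.1 is made mainly in S phase and is placed on newly copied DNA by the chaperone CAF-1, whereas H3.3 is made throughout the cell cycle and replaces H3 at transcribed genes through chaperones such as HIRA and ATRX. In a seedling, H3.1 mRNA is therefore known as a mark of dividing cells and H3.3 mRNA as one of nearly all cells. The proteins of both classes differ at only a few residues, and the members of a class encode the same protein.

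The study compared wild-type seedlings with a mutant of eIF4E, the translation initiation factor that binds the cap of an mRNA. All plants were of the Columbia background, were 9 days old, and had been grown at 22 °C in 16 h of light and 8 h of darkness. Whole seedlings were frozen at zeitgeber time 16 h, at the end of the light period. From each genotype, total mRNA and mRNA from immunopurified ribosomes were sequenced in 3 replicates each with a stranded poly(A) kit. This gave 4 groups (total wild type, total eif4e, ribosome-bound wild type and ribosome-bound eif4e) and 12 libraries. The labels name the mutant only as eif4e, with no allele, and the sources used here do not name a transgene for the purification of ribosomes. They also do not say whether replicates were grown separately, so the p-values speak only of the scatter among these libraries, which may be technical.

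The counts per library ran from 17058704 to 24673644. The level of EIF4E1 (AT4G18040) was checked first: it was 44.0 to 45.8 FPKM in total wild type and 8.28 to 24.2 FPKM in total eif4e, and 71.8 to 92.9 against 11.6 to 13.9 FPKM in the ribosome-bound libraries. The highest mutant value belonged to replicate 2 of total eif4e, which was still below every wild-type library. Values without this library are given beside the changes in total mRNA, the spread of total eif4e, the correlations and the mitosis list. Markers of root tissue and of green leaf tissue were detected in every library, and the labelled tissue is the whole seedling.

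All 8 genes were well expressed, and each H3.3 gene stood above each H3.1 gene in every library. The 5 H3.1 genes together reached 220.2 ± 14.1 FPKM in total wild type (SD, n = 3) and the 3 H3.3 genes 720 ± 33.4 FPKM. In the 3 total wild-type libraries AT4G40040, the most abundant, was at 328, 328 and 342 FPKM. AT4G40030 followed at 231, 195 and 239 FPKM, and AT5G10980 at 167, 159.6 and 168 FPKM. These 3 ranges did not overlap, so the order of the H3.3 genes exceeded the spread between libraries.

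Among the H3.1 genes, AT1G09200 was at 66.8, 63.8 and 68.9 FPKM in total wild type. AT5G65360 was at 59.6, 57.1 and 67.7 FPKM, which overlapped with AT1G09200. AT5G10400 was at 48.7, 48.3 and 54.5 FPKM, below both. AT3G27360 at 23.5, 22.0 and 25.2 FPKM and AT5G10390 at 18.2, 16.8 and 19.4 FPKM closed the order, and they too did not overlap. In total eif4e the ranges of these last members did overlap, with 17.8 to 24.7 FPKM for AT3G27360 and 12.6 to 18.8 FPKM for AT5G10390. The sources used here do not give the way reads were counted, and how alike the transcripts of a class are was not compared, so reads that match several members could have been split between them. The sums over a class keep such reads together.

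**Figure D1:**
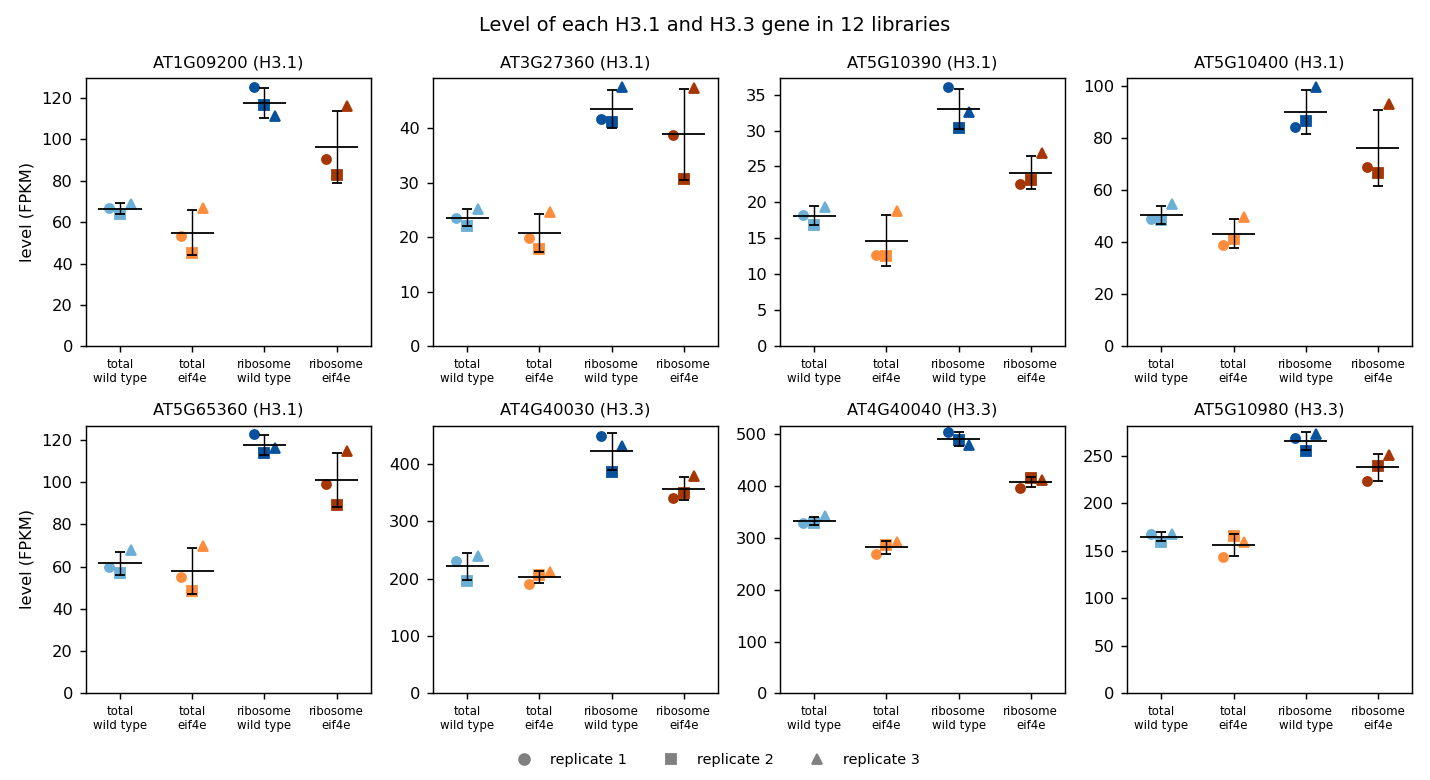
Level of each of the 8 genes in FPKM (vertical axes, each from 0) in the 4 groups, with 1 marker per library (circle, square and triangle for replicates 1, 2 and 3), the group mean as a line and the SD as bars (n = 3). Ribosome-bound libraries sit above total libraries for every gene, and the H3.1 markers of eif4e are spread more widely than those of wild type, except for AT5G10390 in ribosome-bound mRNA (SD 2.32 against 2.83 FPKM).

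All 8 genes took a larger share of the ribosome-bound than of the total mRNA, in both genotypes. For AT1G09200 the ribosome-bound wild-type libraries were at 125, 117 and 111 FPKM, for AT5G65360 at 123, 114 and 116 FPKM, and for AT4G40030 at 449, 386 and 431 FPKM. No ribosome-bound library of these genes came down to a total library of the same genotype. The same absence of overlap held for 8 of 8 genes in wild type and 8 of 8 in eif4e, against 30.1% and 29.2% of all tested genes.

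In wild type the log2 change from total to ribosome-bound mRNA was 0.94 ± 0.15 for AT1G09200 (SE), 1.002 ± 0.16 for AT3G27360, 0.98 ± 0.14 for AT5G10390, 0.95 ± 0.14 for AT5G10400 and 1.05 ± 0.13 for AT5G65360. For H3.3 it was 1.05 ± 0.09 for AT4G40030, 0.68 ± 0.06 for AT4G40040 and 0.81 ± 0.07 for AT5G10980. All 8 passed edgeR's quasi-likelihood test with Benjamini-Hochberg adjustment, which called 33.8% of the tested genes higher in the ribosome-bound mRNA. In eif4e the changes ran from 0.75 to 0.94 for H3.1 and were 0.85 ± 0.09, 0.57 ± 0.06 and 0.64 ± 0.07 for AT4G40030, AT4G40040 and AT5G10980. Again all 8 passed, against 29.1% of the tested genes. These changes are relative to the rest of the mRNA of a library, since neither kind of library was scaled to an absolute amount.

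Short genes in general took a larger share of the ribosome-bound mRNA, and the H3 genes are short. Of the tested genes, between 5.63% and 15.0% were shorter than each H3.1 gene, and 9.61%, 24.5% and 29.9% were shorter than AT5G10980, AT4G40040 and AT4G40030. When the tested genes were split by length into 5 classes of equal size, the median log2 change in the shortest class in wild type was 0.92, and 74.8% of these genes were called higher. In the next class, which holds AT4G40030 and AT4G40040, the median was 0.40 and 57.0% were called. It went down to -0.73 in the longest class. In eif4e the medians of the shortest and the next class were 0.63 and 0.29, and that of the longest -0.50.

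**Figure D2:**
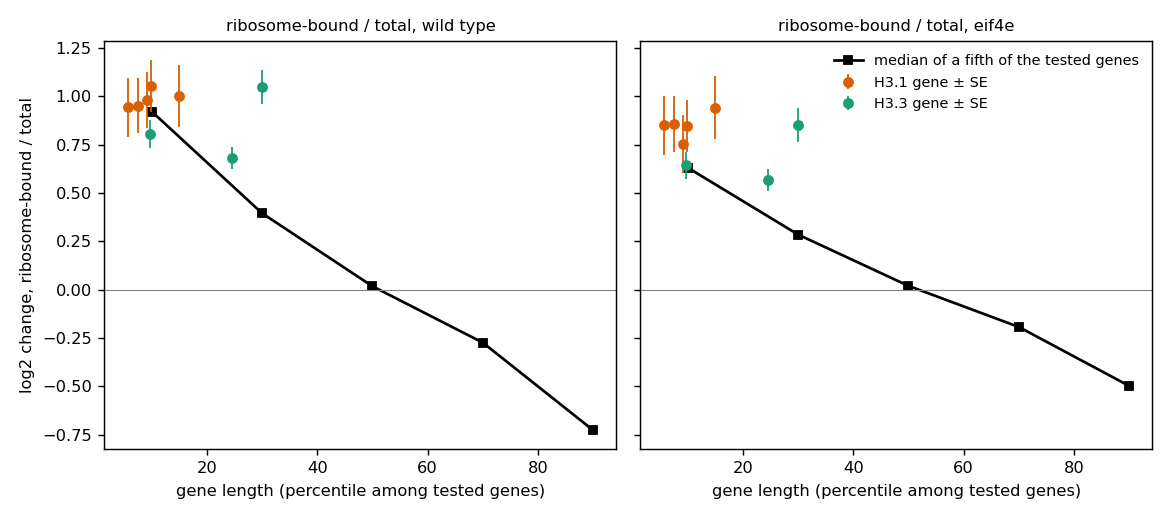
Log2 change from total to ribosome-bound mRNA (vertical axis) against gene length as a percentile among the tested genes (horizontal axis), in wild type and in eif4e. Points are the H3.1 and H3.3 genes with their SE, and squares joined by a line are the medians of the 5 length classes. In wild type the H3.1 genes and AT5G10980 lie near the median of the shortest genes (0.92). In eif4e AT5G10980 lies near that median (0.63), and the H3.1 genes, at 0.75 to 0.94, lie above it. AT4G40030 and AT4G40040 lie above the line in both panels.

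When each library's trend of counts with gene length was taken out, 2 of the 8 genes, both of H3.3, remained higher in the ribosome-bound mRNA. The 5 H3.1 genes then had log2 changes of -0.14, 0.20, 0.01, -0.06 and 0.11 in wild type (in the order AT1G09200, AT3G27360, AT5G10390, AT5G10400, AT5G65360). In eif4e these were 0.10, 0.37, 0.08, 0.15 and 0.18, and 0 of 5 passed in either genotype. AT4G40030 still rose in the ribosome-bound mRNA by 0.64 ± 0.08 in wild type (adjusted p = 1.1e-04, edgeR) and by 0.54 ± 0.08 in eif4e (adjusted p = 3.6e-04). AT4G40040 kept a smaller rise of 0.13 ± 0.05 (adjusted p = 0.0473) and 0.16 ± 0.05 (adjusted p = 0.0192). AT5G10980, as short as the H3.1 genes, was slightly lower in wild type (-0.15 ± 0.05, adjusted p = 0.0328) and did not pass in eif4e (-0.02, adjusted p = 0.787). With this correction 20.9% of the tested genes were called higher in wild type and 18.7% in eif4e. The correction takes out any trend with length, whatever its source, and the source was not tested.

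**Figure D3:**
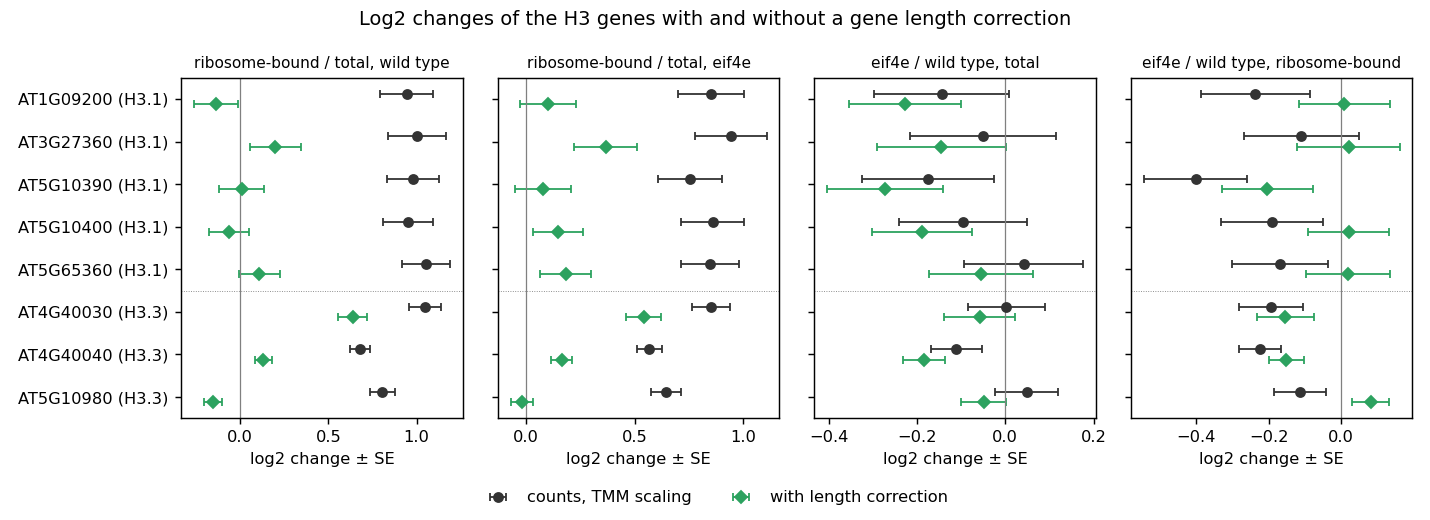
Log2 changes of the 8 genes with their SE (horizontal axes, which differ in range between panels) for the 2 kinds of mRNA compared in each genotype and for eif4e against wild type in each kind of mRNA, without (circles) and with (diamonds) the length correction. In wild type the H3.1 changes of about 1 between the kinds of mRNA move to between -0.14 and 0.20 with the correction, and that of AT4G40030 moves from 1.05 to 0.64. In eif4e the H3.1 changes of 0.75 to 0.94 move to between 0.08 and 0.37.

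In total mRNA no H3 gene passed the test between the genotypes. AT4G40040 was at 268, 286 and 292 FPKM in total eif4e, below all 3 wild-type libraries. The other 7 genes overlapped between the genotypes in FPKM, and AT1G09200, for example, was at 53.3, 45.0 and 66.7 FPKM in the mutant. Thus 1 of 8 genes had separate, lower mutant values, against 34.5% of the tested genes. These FPKM are as deposited, without the scaling of the test. With library size as the only scaling, the median log2 change of all tested genes was itself at -0.11.

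The log2 changes of the H3.1 genes in total mRNA were -0.14 ± 0.15 for AT1G09200, -0.05 ± 0.17 for AT3G27360, -0.18 ± 0.15 for AT5G10390, -0.10 ± 0.14 for AT5G10400 and 0.04 ± 0.13 for AT5G65360. Those of the H3.3 genes were 0.00 ± 0.09 for AT4G40030, -0.11 ± 0.06 for AT4G40040 and 0.05 ± 0.07 for AT5G10980. None of the 8 was called by edgeR's quasi-likelihood test, and 0 of 8 had an unadjusted p under 0.05, whereas 17.0% of the tested genes were called in either direction. DESeq2 called 0 of 8 as well. AT4G40040 had an adjusted p of 0.201 here. It passed with library size as the only scaling (-0.22, adjusted p = 0.0215), where the median of all tested genes was itself at -0.11. It also passed with limma on FPKM and with the length correction (-0.18, adjusted p = 0.0246). The values above 0 of AT4G40030, AT5G10980 and AT5G65360 turned below 0 under these same settings. Without replicate 2 of total eif4e the summed H3.1 change was 0.03, against -0.07 with it, and without replicate 3 it was -0.21.

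In the ribosome-bound mRNA all 8 genes had values below 0, and 1 of them passed. AT4G40040 was at 504, 489 and 478 FPKM in wild type and at 396, 415 and 411 FPKM in eif4e. The groups did not overlap, and the gene fell by 0.22 on the log2 scale (SE 0.06, adjusted p = 0.0159, edgeR's quasi-likelihood test). Thus 1 of 8 genes was called lower, a share close to the 12% of all tested genes called lower. The call was narrow: the adjusted p rose to 0.0529 without replicate 1 of ribosome-bound wild type, to 0.0586 without replicate 1 of ribosome-bound eif4e, to 0.0785 with the ribosome-bound libraries alone, and to 0.0510 with the length correction.

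AT5G10390, the least abundant H3.1 gene, showed the widest gap between the genotypes in the ribosome-bound mRNA. It was at 36.0, 30.4 and 32.6 FPKM in wild type and at 22.5, 23.1 and 26.8 FPKM in eif4e. The groups did not overlap, but the log2 change of -0.40 ± 0.14 missed the threshold (adjusted p = 0.0575, edgeR). AT4G40030 was at 341, 350.1 and 379 FPKM in the mutant, below its wild-type libraries, with a change of -0.19 ± 0.09 (adjusted p = 0.119). With the replicate numbers as a block both passed, at -0.41 (adjusted p = 0.00888) and -0.19 (adjusted p = 0.0361), so that 3 of 8 genes were called lower, against 20.4% of the tested genes in that fit.

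The other changes in the ribosome-bound mRNA were -0.24 ± 0.15 for AT1G09200, -0.11 ± 0.16 for AT3G27360, -0.19 ± 0.14 for AT5G10400, -0.17 ± 0.13 for AT5G65360 and -0.11 ± 0.07 for AT5G10980. In FPKM as deposited, 4 of 8 genes had separate, lower mutant values (AT5G10390 and the 3 H3.3 genes), against 22.6% of the tested genes. On log2 counts scaled as in the test, AT5G10390 and AT4G40040 stayed separate. There AT4G40030 (highest mutant 8.91, lowest wild type 8.85) and AT5G10980 (7.64 and 7.58) overlapped. Replicate 3 of ribosome-bound eif4e carried the highest mutant value of every H3.1 gene. Without it, AT1G09200 (-0.41, adjusted p = 0.0470), AT5G10390 (-0.50, adjusted p = 0.0407) and AT5G10400 (-0.38, adjusted p = 0.0315) passed edgeR's test. The summed H3.1 change was -0.35 ± 0.12 without that library, against -0.20 ± 0.14 with all libraries. Without replicate 2 of ribosome-bound eif4e it shrank to -0.09 ± 0.14. With the length correction, 5 of the 8 values lay just above 0, the highest being 0.08 for AT5G10980. In this comparison too the values followed gene length over all tested genes, with a median of -0.24 in the shortest class and 0.19 in the longest.

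The genotype change did not pass the test as different between the kinds of mRNA for any H3 gene. The difference, ribosome-bound minus total, ran from -0.23 ± 0.21 for AT5G10390 to -0.06 for AT3G27360 and was below 0 for all 8. With the length correction 7 of 8 were above 0. By edgeR 0 of 8 passed and 0 of 8 had an unadjusted p under 0.05, and 4.03% of the tested genes were called. The fits of all comparisons share the same 12 libraries, so their values for a gene are not independent of each other.

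As sums, the classes had similar differences between the genotypes. The summed H3.1 level was 220.2 ± 14.1 FPKM in total wild type, 192 ± 33.8 FPKM in total eif4e, 402 ± 11.9 FPKM in ribosome-bound wild type and 337 ± 54.8 FPKM in ribosome-bound eif4e (SD, n = 3). The summed H3.3 level was 720 ± 33.4, 641 ± 33.5, 1178 ± 45.8 and 1002 ± 40.4 FPKM in the same order. These FPKM are as deposited, without the scaling of the test. With library size as the only scaling, the summed counts changed by -0.18 (H3.1) and -0.15 (H3.3) in total mRNA. The median of all tested genes was then itself at -0.11. On the counts scaled as in the test, the log2 change between the genotypes was -0.07 ± 0.14 for H3.1 and -0.04 ± 0.07 for H3.3 in total mRNA. In ribosome-bound mRNA it was -0.20 ± 0.14 and -0.19 ± 0.07 (SE). The gap between the classes was smaller than either error. It was wider without replicate 3 of total eif4e, at -0.21 ± 0.13 for H3.1 and -0.06 ± 0.08 for H3.3 in total mRNA. It was also wider without replicate 3 of ribosome-bound eif4e, at -0.35 ± 0.12 and -0.23 ± 0.07 in ribosome-bound mRNA. Without replicate 2 of total eif4e the gap turned the other way, at 0.03 ± 0.14 and -0.06 ± 0.08 in total mRNA. The same held without replicate 2 of ribosome-bound eif4e, at -0.09 ± 0.14 and -0.17 ± 0.07 in ribosome-bound mRNA.

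The share of H3.1 in the summed level of both classes was 23.0, 23.3 and 23.9% in the 3 total wild-type libraries and 23.0, 20.06 and 25.7% in total eif4e. It was 25.1, 25.6 and 25.6% in ribosome-bound wild type and 24.98, 22.6 and 27.7% in ribosome-bound eif4e. The mutant libraries lay on both sides of the wild type in each kind of mRNA. Between the kinds of mRNA, the ribosome-bound library had the higher share in each of the 6 pairs with the same genotype and replicate number, by 1.66 to 2.49 percentage points. These shares hold no length correction. With it, the H3.1 changes in wild type (-0.14 to 0.20) lay below that of AT4G40030 (0.64). AT4G40040, the median of the 3 H3.3 genes at 0.13, then lay within the H3.1 range, and AT5G10980 lay below it. The shares of the ribosome-bound and total groups overlapped in eif4e and did not in wild type.

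**Figure D4:**
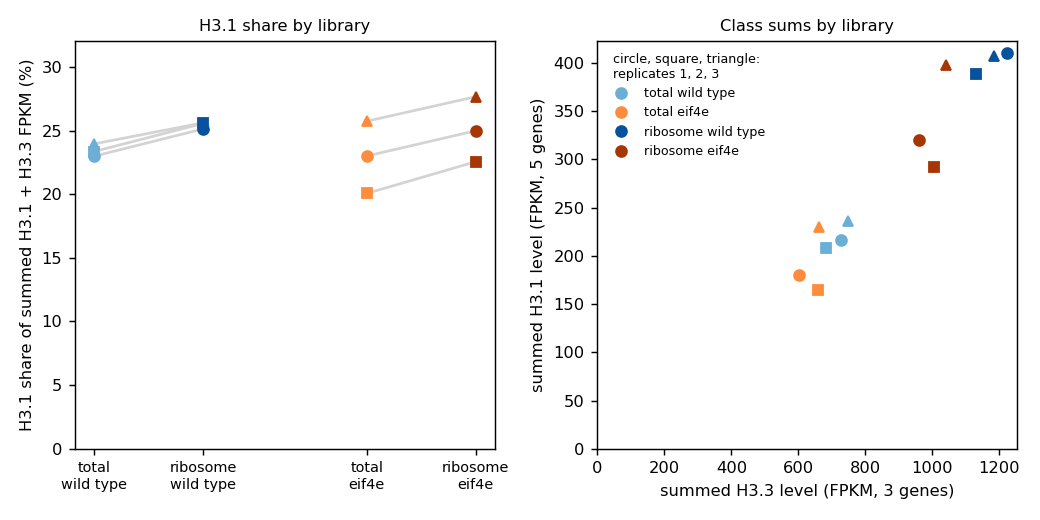
Left, H3.1 share of the summed H3.1 and H3.3 FPKM in percent for each library, with lines joining libraries of the same genotype and replicate number. Right, summed H3.1 FPKM of 5 genes (vertical axis) against summed H3.3 FPKM of 3 genes (horizontal axis). Every line rises from total to ribosome-bound mRNA, and the eif4e shares run from 20.06 to 27.7%, on both sides of wild type.

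The H3.1 genes varied more between the mutant libraries than between the wild-type ones, and they did so together. The median coefficient of variation (SD over mean of the FPKM) of the 5 genes was 6.89% in total wild type, 18.8% in total eif4e, 8.14% in ribosome-bound wild type and 18.1% in ribosome-bound eif4e. For the H3.3 genes it was 2.86, 5.16, 3.60 and 5.59%. Without replicate 2 of total eif4e the median there was 16.4% for H3.1 and 7.02% for H3.3, from 2 libraries. With 3 libraries a group, the spread of a group is itself poorly known, and its difference between the genotypes was not tested. The 5 H3.1 genes deviated from their group mean by -0.08, -0.20 and 0.28 on average in replicates 1, 2 and 3 of total eif4e (log2 CPM, counts scaled to library depth). In ribosome-bound eif4e the averages were -0.06, -0.23 and 0.29. Replicate 2 was thus low and replicate 3 high in both kinds of mRNA. In wild type replicate 2 was also the lowest and replicate 3 the highest in both kinds, but the averages stayed between -0.06 and 0.08.

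Genes of dividing cells and markers of root and of green leaf tissue deviated in the same libraries. The tested genes of the mitosis list deviated by 0.07, -0.31 and 0.24 in total eif4e and by 0.16, -0.39 and 0.23 in ribosome-bound eif4e. The DNA replication list deviated by 0.03, -0.17 and 0.13 in total eif4e and by 0.06, -0.13 and 0.06 in ribosome-bound eif4e. In total eif4e the 8 H4 genes deviated by -0.05, -0.15 and 0.20, the 8 root markers by 0.05, -0.32 and 0.27 and the 6 green leaf markers by -0.05, -0.15 and 0.20. In ribosome-bound eif4e the H4 genes deviated by -0.02, -0.26 and 0.28, the root markers by -0.01, -0.19 and 0.20 and the green leaf markers by -0.05, -0.19 and 0.24. Replicate 2 was the lowest of the eif4e libraries in each of these lists. For the green leaf markers it was also the lowest wild-type library (-0.19 in total and -0.26 in ribosome-bound mRNA). The same held, with smaller values, for DNA replication (-0.05 and -0.06) and mitosis (-0.04 and -0.05). For H4 and the root markers it held in ribosome-bound wild type (-0.08 and -0.12) but not in total wild type. In whole seedlings fewer cells of a type and less mRNA per cell cannot be told apart. The part of any of these lists in the H3.1 values was not tested.

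**Figure D5:**
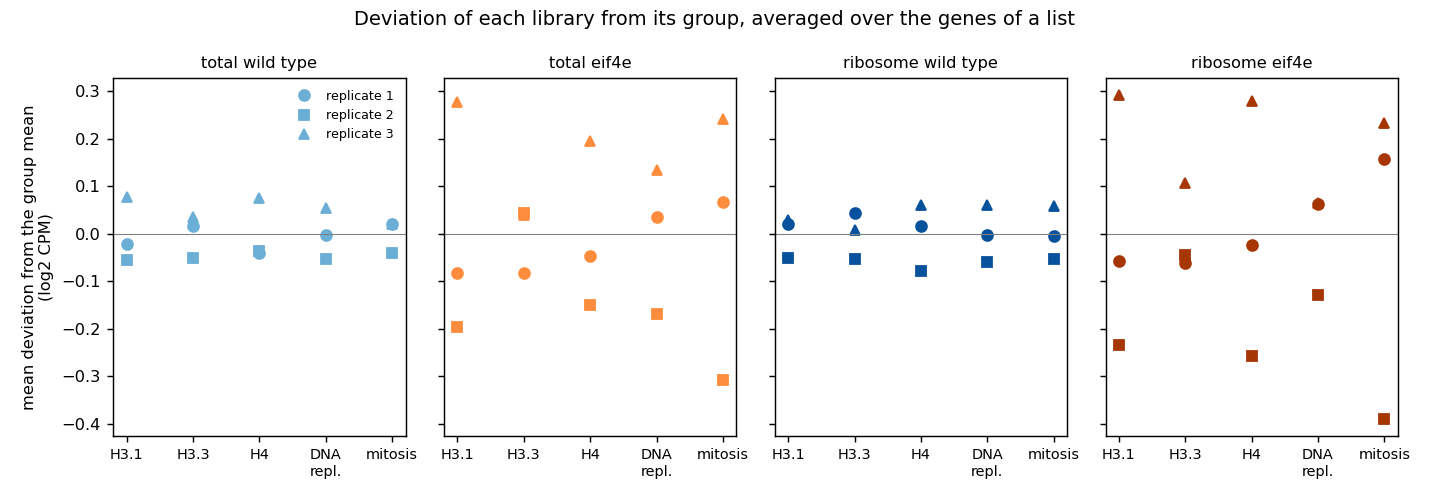
Deviation of each library from its group mean (vertical axis, log2 CPM), averaged over the genes of 5 lists (horizontal axis: H3.1, H3.3, H4, DNA replication, mitosis), with 1 panel per group and 1 marker shape per replicate. In both eif4e panels replicate 2 is low and replicate 3 high for H3.1 (-0.20 and 0.28 in total mRNA). The wild-type libraries lie close together, with replicate 2 below replicate 3 for H3.1 there too.

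Once the group means were taken out, the 10 pairs of H3.1 genes had Pearson correlations of 0.71 to 0.96 over the 12 libraries, with a median of 0.86. The 3 pairs of H3.3 genes lay between 0.49 and 0.72, and the 15 pairs across the classes between 0.28 and 0.70 with a median of 0.55. These describe the 12 libraries, which all genes share. Without replicate 2 of total eif4e the medians were 0.85 for H3.1 and 0.70 for H3.3, and that across the classes was 0.76. With that library in, the correlations across the classes were lower than without it, and those within H3.1 were about the same.

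Within a class the shares of the members were fairly steady. Over the 12 libraries AT1G09200 made up 27.3 to 30.8% and AT5G65360 27.5 to 31.03% of the summed H3.1 level. AT5G10400 made up 20.5 to 25.02%, AT3G27360 10.2 to 12.1% and AT5G10390 6.74 to 8.78%. In H3.3, AT4G40040 held 39.5 to 48.1%, AT4G40030 28.6 to 36.7% and AT5G10980 22.0 to 25.2%.

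The genes form 2 pairs that are next to each other among the protein-coding genes of their chromosome, AT4G40030 with AT4G40040 on chromosome 4 and AT5G10390 with AT5G10400 on chromosome 5. The ratio of AT4G40030 to AT4G40040 in FPKM was 0.706, 0.595 and 0.699 in total wild type and 0.714, 0.724 and 0.723 in total eif4e. It was 0.889, 0.790 and 0.901 in ribosome-bound wild type and 0.863, 0.844 and 0.924 in ribosome-bound eif4e. The ratio was higher in every ribosome-bound library than in any total library. In total mRNA the 3 mutant ratios also lay above the 3 wild-type ones, by as little as 0.714 against 0.706, and in ribosome-bound mRNA the genotypes overlapped. For AT5G10390 to AT5G10400 the ratio ran from 0.288 to 0.429 and the kinds of mRNA overlapped.

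The genes whose levels followed each class most closely over the 12 libraries differed between the classes. For H3.1, by the Pearson correlation with the averaged standardised log2 CPM of its 5 genes, they were AT3G07950 (0.991), the H2B gene AT3G53650 (0.991), the H4 genes AT3G45930 and AT3G53730 (0.990 each) and ACBP1 (0.989). For H3.3 they were AT1G36380, rps15ae and LCR69 (0.997 each), and AT4G12230 and AT3G07910 (0.996 each). These values rest mostly on the step between total and ribosome-bound libraries, which many genes share.

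The other histone genes shared the larger share in ribosome-bound mRNA. In wild type 8 of 8 H4 genes, 4 of 4 replication-type H2A genes, 8 of 8 genes of the variants H2A.Z, H2A.X and H2A.W, 8 of 8 H2B genes and 3 of 3 linker histone H1 genes were called higher, with median log2 changes of 1.07, 1.01, 0.996, 1.07 and 0.51, where 33.8% of the tested genes were called. In eif4e the counts were 8, 4, 7, 8 and 3, against 29.1%. With the length correction, 1 H4, 0 replication-type H2A, 2 H2A variant, 1 H2B and 1 H1 gene were called higher in wild type, against 20.9% of the tested genes.

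Between the genotypes few of the other histone genes passed edgeR's quasi-likelihood test. In total mRNA 0 of 8 H4, 0 of 4 replication-type H2A, 0 of 8 H2B and 0 of 3 H1 genes were called, and HTA9, which encodes an H2A.Z, rose by 0.61, against 17.0% of the tested genes called in either direction. In ribosome-bound mRNA 2 of 8 H4 genes were called lower, AT1G07820 (-0.45) and AT1G07660 (-0.38). So were 1 of 8 H2A variant genes, the H2A.Z gene HTA8 (-0.68), and HTR12, which encodes the centromeric H3 (-0.61). There 0 of 4 replication-type H2A, 0 of 8 H2B and 0 of 3 H1 genes were called. Of all tested genes, 12% were called lower. With the length correction AT1G07660 was at -0.19 (adjusted p = 0.054). The call of HTR12, 1 of 3 other H3 genes that passed the filter of the 6 listed, was lost without either of 2 single libraries (adjusted p up to 0.0532). HTA9 also passed as different between the kinds of mRNA (-0.65), against 4.03% of the tested genes, and lost that call without any 1 of 8 libraries and with the length correction (-0.41, adjusted p = 0.153).

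Of 12 tested genes for H3 chaperones and enzymes that act on H3.1, ATRX, the remodeller that works with H3.3, was the only one called in total mRNA, at -0.41, where 6.54% of the tested genes were called lower. In ribosome-bound mRNA ATRX rose by 0.33 and CABIN1, a subunit of the HIRA complex, by 0.32, against 15.4% of the tested genes called higher. Both also passed as different between the kinds of mRNA, against 4.03% of the tested genes. With the length correction the ribosome-bound calls and the calls of the difference (0.31, adjusted p = 0.228 for ATRX and 0.06, adjusted p = 0.919 for CABIN1) were lost for both. Each of these calls was lost on leaving out certain single libraries, with adjusted p up to 0.0601 for ATRX in total mRNA and up to 0.108 and 0.0707 for ATRX and CABIN1 in ribosome-bound mRNA. The CAF-1 genes FAS1 and FAS2, HIRA and the other members were not called.

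Of the genes of DNA replication, which are active in the same phase as H3.1, 2 of 19 were called in total mRNA and 2 of 19 in ribosome-bound mRNA. In total mRNA MCM6, a part of the replicative helicase (-0.34), and ICU2, the catalytic subunit of DNA polymerase alpha (-0.33), were lower, where 6.54% of the tested genes were called lower. In ribosome-bound mRNA RNR2A, a subunit of ribonucleotide reductase, was higher (0.32) and PCNA1, the sliding clamp, lower (-0.46), against 15.4% and 12% of the tested genes. Each of these calls was lost on leaving out certain single libraries, with adjusted p up to 0.140.

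The mitosis list was the one of the cell division lists with the larger genotype differences. All 13 tested genes had values below 0 in both kinds of mRNA, with medians of -0.51 and -0.59. In total mRNA 4 of 13 passed, among them CDC20.1, an activator of the anaphase-promoting complex (-0.82), the kinase CDKB1;1 (-0.67) and the kinase AUR2 (-0.57), against 6.54% of the tested genes. In ribosome-bound mRNA 8 of 13 passed, led by the cyclin CYCB1;4 (-0.65) and the kinases CDKB1;2 (-0.63) and CDKB2;2 (-0.61), against 12% of the tested genes. The summed level of the 14 listed genes was 119 to 130 FPKM in total wild type against 63.0 to 92.1 FPKM in total eif4e, and 123 to 132 against 65.3 to 93.7 FPKM in ribosome-bound mRNA. Without replicate 2 of total eif4e 0 of 13 passed in total mRNA, with all 13 below 0 and a median of -0.40. With 1 library left out, 0 to 8 of 13 passed in total mRNA, where each of the 4 calls was lost without any 1 of 9 libraries, and 2 to 10 in ribosome-bound mRNA, the latter lowest without replicate 2 of ribosome-bound eif4e.

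Of the tissue markers, 3 of 8 root genes were lower in total mRNA (BGLU22 at -1.13, CASP2 at -0.59 and CASP1 at -0.54) and 4 of 8 in ribosome-bound mRNA (BGLU22 at -1.57 and BGLU21 at -1.22 at the extreme, and CASP1 at -0.67), against 6.54% and 12% of the tested genes. With 1 library left out 2 to 4 and 3 to 6 of 8 were lower. PHO1, chosen after its values were seen, lay above 0 in both (0.15 ± 0.17 and 0.22 ± 0.17) and did not pass. All 6 green leaf genes were higher in total mRNA (LHCB1.2 at 1.24, LHCB1.1 at 1.22 and RBCS1A at 0.79), against 10.4% of the tested genes, and 3 of 6 in ribosome-bound mRNA (LHCB1.1 at 0.89, LHCB1.2 at 0.85 and RBCS1A at 0.42), against 15.4%. The latter count ran from 1 to 5 of 6 with 1 library left out, and RBCS1A lost its call without any 1 of 6 libraries (adjusted p up to 0.137) and LHCB1.2 without either of 2. The part of tissue makeup in the H3 values was not tested.

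With the replicate numbers as a block, more of these genes were called. In total mRNA 11 of 13 mitosis, 4 of 19 DNA replication, 6 of 8 root, 2 of 12 chaperone and 1 of 8 H4 genes were then lower, against 15.0% of the tested genes, and 6 of 6 green leaf genes were higher, against 16.8%. In ribosome-bound mRNA 13 of 13 mitosis, 5 of 8 root, 4 of 8 H4, 3 of 8 H2A variant, 2 of 4 replication-type H2A and 2 of 3 other H3 genes were lower, against 20.4% of the tested genes. In the same fit 6 of 6 green leaf and 3 of 12 chaperone genes were higher in ribosome-bound mRNA, against 20.9% of the tested genes. There the DNA replication list stayed at 1 higher and 1 lower of 19. In both kinds of mRNA 0 of 8 H2B and 0 of 3 H1 genes were called.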

How the data were processed

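The deposited tables, 1 per library, list for each gene a read count and an FPKM value as the authors made them. Per the submitters' processing notes, the aligner was TopHat2 (2.0.11) and the genome build TAIR10. The sources used here do not give the counting program. Genes that a library's table did not list entered with 0 counts, which concerned 3308 genes, none with more than 51 counts in any other library. Names and gene order were taken from RefSeq (assembly TAIR10.1), which matched 25710 of 25835 identifiers, and gene lengths were computed back from counts and FPKM.

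Counts were fitted in R 4.3.3 with edgeR 4.0.16 (TMM scaling, 1 mean for each of 4 groups, quasi-likelihood test, two-sided) over the 19170 genes with a mean of at least 1 FPKM. A gene was called at a Benjamini-Hochberg adjusted p under 0.05 over all of them. Class sums entered the same fit as 1 row each, with no test. Library totals were 21707431 to 22539336 in total wild type, 17058704 to 19973299 in total eif4e, 18585324 to 24673644 in ribosome-bound wild type and 20083555 to 22034288 in ribosome-bound eif4e. Replicates of a group differed by more than counting error, with a chi-square of no less than 6.50 for each degree of freedom.

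Libraries with the same replicate number deviated together (correlations of 0.193 to 0.795 between groups). The tables of wild type and eif4e with the same number listed the same genes in all 6 cases. Replicate 1 of eif4e, however, deviated slightly more with replicate 3 of wild type than with replicate 1. The correlations were 0.271 against 0.246 in total mRNA and 0.231 against 0.193 in ribosome-bound mRNA. The numbers were taken to pair the libraries in the replicate block and where libraries of the same number are compared. The main fit holds no block. On simulated data for the total mRNA comparison (19170 genes), 96% of genes changed by 1 on the log2 scale and 15% of those changed by 0.5 were recovered, and 0.0316% of unchanged genes were called. The simulation gave all genes the same spread, changed 100 genes by each amount and held no replicate effect. The real comparison called 3254 genes, so these shares need not hold for it.

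Alternatives were other scalings and filters, DESeq2 1.42.0, limma 3.58.1 on log2(FPKM + 1) and log2(FPKM + 0.1), a replicate block, a correction of each library for gene length (a smooth trend as an offset), each library left out and the compared groups alone. The 8 genes are all named. In the other lists, the genes named are the 3 called with the largest change (fewer where fewer were called), and for each class the 5 genes with the most similar pattern. EIF4E1, PHO1 and genes named without a value of their own stand outside this rule. The spread and correlations without replicate 2 of total eif4e were added after seeing the data. Members and lists were chosen with earlier results of these data known.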

Additional observations from a re-analysis of the deposited data

How the results depend on the processing

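The larger share of the 8 genes in ribosome-bound mRNA kept its direction and its calls under every scaling, filter and tool and with each library left out, but not with the length correction. With the replicate block the number of tested genes called moved to 6104 in total mRNA (6554 with the length correction too), 7914 in ribosome-bound mRNA and 1937 for the difference of the genotype changes, against 3254, 5236 and 772. Of the 8 genes, the block changed no call other than the 2 gained in ribosome-bound mRNA, AT5G10390 and AT4G40030. The length correction gave 3483 calls in ribosome-bound mRNA, 135 for the difference (386 with the block) and 8203, against 12935 without it, between the kinds of mRNA in wild type. The difference also moved to 479 without a filter and 1352 with DESeq2. The ribosome-bound libraries alone gave 2710. With 1 library left out the calls ran from 1665 (without replicate 2 of total wild type) to 3429 in total mRNA, from 3075 (without replicate 1 of ribosome-bound eif4e) to 5351 in ribosome-bound mRNA, and for the difference from 161 to 1607 (without replicate 3 of total eif4e and of ribosome-bound eif4e).

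In total mRNA 1 H3.3 gene, AT4G40040, was called with library size alone, both limma fits, the length correction and the block with it, and 1 H3.1 gene with the last. In ribosome-bound mRNA 1 H3.1 gene was called with library size alone, a mean of at least 5 FPKM, DESeq2, both limma fits, the block and the compared groups alone (0 to 3 with 1 library left out). The H3.3 count was 2 with the block, 0 with the length correction or the compared groups alone, and 0 to 1 with 1 library left out. Between the kinds of mRNA, 0 of 5 H3.1 genes were called with the length correction, and 0 in wild type and 1 in eif4e with the block too.

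Signs turned in total mRNA for 3 genes. AT4G40030 moved to -0.011 with median-ratio scaling and with DESeq2, -0.0064 with the compared groups alone, -0.018 at a mean of at least 5 FPKM, -0.11 with library size alone, -0.12 with limma, -0.058 with the length correction and -0.054 with the block added to it, and ran from -0.068 to 0.047 with 1 library left out. Under library size alone, limma, the length correction and the block with it, AT5G10980 moved to -0.062, -0.082 or -0.083, -0.049 and -0.050, and AT5G65360 to -0.070, -0.10, -0.056 and -0.062. With 1 library left out AT5G65360 ran from -0.11 to 0.15 and AT3G27360 from -0.19 to 0.050 (from -0.29 to 0.055 in ribosome-bound mRNA). In ribosome-bound mRNA the length correction gave 0.0093 for AT1G09200, 0.020 for AT3G27360, 0.021 for AT5G10400, 0.019 for AT5G65360 and 0.082 for AT5G10980. With the block added, 4 of these were 0.0074 for AT3G27360, 0.017 for AT5G10400, 0.011 for AT5G65360 and 0.082 for AT5G10980. Between the kinds of mRNA in wild type the length correction gave -0.14, -0.063 and -0.15 for AT1G09200, AT5G10400 and AT5G10980 (-0.13, -0.065 and -0.15 with the block), and -0.020 for AT5G10980 in eif4e with and without the block.

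By counts the H3.1 share was 17.5, 17.2, 19.0 and 18.8% in total wild type, total eif4e, ribosome-bound wild type and ribosome-bound eif4e. With library size alone the H3.3 sum changed by -0.15 between the genotypes in total mRNA and by 0.72 between the kinds of mRNA in wild type. With 1 library left out the H3.1 sum ran from -0.21 to 0.029 in total mRNA, -0.35 to -0.086 in ribosome-bound mRNA and 0.70 to 1.004 between the kinds of mRNA in eif4e. The causes were not tested. The errors of the H3.1 values in total mRNA were 0.13 to 0.17 on the log2 scale.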
